A study of Mus musculus with 12 samples.

Results

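The genes described here are the Wnt ligands, the Frizzled receptors, their co-receptors Lrp5 and Lrp6, the secreted Wnt antagonists and Axin2. They were chosen by name: every symbol of the Wnt, Frizzled (Fzd), secreted Frizzled-related protein (Sfrp1 to Sfrp5) and Dickkopf (Dkk1 to Dkk4) families, with Wif1, Frzb, Axin2, Lrp5 and Lrp6. That gave 42 of the 45859 genes listed, with 19 Wnt ligands, 10 Frizzled receptors, 10 antagonists, 2 co-receptors and Axin2.

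Wnt proteins are lipid-modified secreted ligands that bind Frizzled receptors on the cell surface. With Lrp5 or Lrp6 as co-receptor, binding protects β-catenin from destruction, and β-catenin then acts with TCF/LEF factors on target genes, of which Axin2 is a widely used one and itself part of the machinery that destroys β-catenin. Other Wnts act through Frizzleds without β-catenin, on cell shape and polarity, and in the lens Wnt signaling is known for roles in the epithelium and in the orderly arrangement of fiber cells.

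RNA was measured in lens cells (LCs) left on the lens capsule after a mouse model of cataract surgery, in which the fiber cells are taken out, at 0 h and 24 h post cataract surgery (PCS). WT mice were C57BL/6. The β8ITG-cKO mice (cKO) carried a floxed Itgb8 allele, coding for the β8 integrin subunit, and the lens-specific MLR10-Cre transgene, expressed throughout the LCs since the lens vesicle forms. Their labels give the strain as mixed C57BL/6 and 129S1/Sv, whereas the methods describe many generations of backcrossing to a C57BL/6 substrain. All were adults of 2 months, and whether WT mice carried Cre was not given in the sources used here. Each of the 4 groups (WT 0 h, WT 24 h, cKO 0 h and cKO 24 h) had 3 libraries, and each library pooled 5 capsules. As labelled, strain and genotype cannot be told apart in this design. Levels are FPKM, fragments scaled for transcript length and for the size of the library, a scale on which genes of unlike length can be compared. Changes are differences of log2(FPKM + 1) with their standard errors (SE), which understate the change of low genes. The test was limma, run over all genes whose mean reached 0.5 FPKM, and passing it means an adjusted p no higher than 0.05.

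Libraries summed to between 446531 and 740140 FPKM, with 36.0% to 49.6% of it in the 10 highest genes of each library. Itgb8 stood at 7.26 to 10.78 FPKM in WT 0 h and 4.58 to 7.31 FPKM in cKO 0 h, and at 8.38 to 9.58 FPKM and 9.28 to 11.83 FPKM at 24 h. These values cover all exons of the gene and so do not check a deletion of 1 exon. Pax6, a gene of the lens epithelium, lay between 59.9 and 93.49 FPKM in every library. Foxe3, another such gene, was at 70.41 to 78.05 FPKM in WT 0 h and 105.46 to 172.17 FPKM in cKO 0 h. At 24 h Foxe3 was at 26.16 to 46.79 FPKM in WT and 25.46 to 40.31 FPKM in cKO. Summed FPKM of 18 photoreceptor genes reached 1421.56 in WT 0 h replicate 2, against 172.37 and 425.34 in the other WT 0 h libraries. In cKO 24 h the same sum was 1056.12 to 1246.72, against 93.85 to 178.55 in WT 24 h. Cryaa, a crystallin gene at 24296 FPKM or more in the other WT 0 h libraries, was listed at 0 in replicate 2, so a listed 0 in these files can be a failed estimate.

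Most of the 42 genes were low or absent in LCs. In 18 of them a group mean reached 2 FPKM, namely 5 Wnts, 8 Frizzleds, both co-receptors, 2 antagonists and Axin2. The other 24 stayed under 2 FPKM in every group mean and under 1.8 FPKM or at it in every library. Among those, 20 were tested in no comparison and reached at most 0.71 FPKM in any library, and Wnt3a was listed at 0 in all 12. The low antagonists were Dkk1, Dkk2, Dkk4, Sfrp2, Sfrp4, Sfrp5, Frzb and Wif1, the highest being Wif1 with 0.71 FPKM in 1 library.

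Summed over each family, the genes grouped here as antagonists stood above the ligands and the ligands above the Frizzleds in every library. Dkk3 was placed in that group by its Dickkopf name, and what it does to Wnts was not tested. Sfrp1, the next antagonist after Dkk3, was by itself above the ligand sum in all WT 0 h libraries. In all libraries of the other groups it was below the ligand sum, so there the place of the antagonists rested on Dkk3. In WT 0 h the order of group means began with Dkk3 at 620 ± 68.6 FPKM (SD, n = 3), Sfrp1 at 129 ± 2.8 FPKM and Wnt7b at 68.1 ± 2.96 FPKM, and the libraries of these 3 genes did not overlap with each other or with any lower gene. Next came Lrp6 at 16.4 ± 0.7 FPKM and Wnt5b at 15.4 ± 1.52 FPKM, which overlapped. Wnt7a, Fzd6 and Fzd1 followed at 12.9, 12.1 and 12 FPKM with overlapping libraries. Axin2, Fzd7 and Fzd5 were at 7.92, 7.75 and 6.89 FPKM and also overlapped. In every library Wnt7b made up 59.0% to 68.2% of the summed Wnt FPKM, and Dkk3 made up 73.7% to 84.6% of the summed antagonist FPKM.

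**Figure D1:**
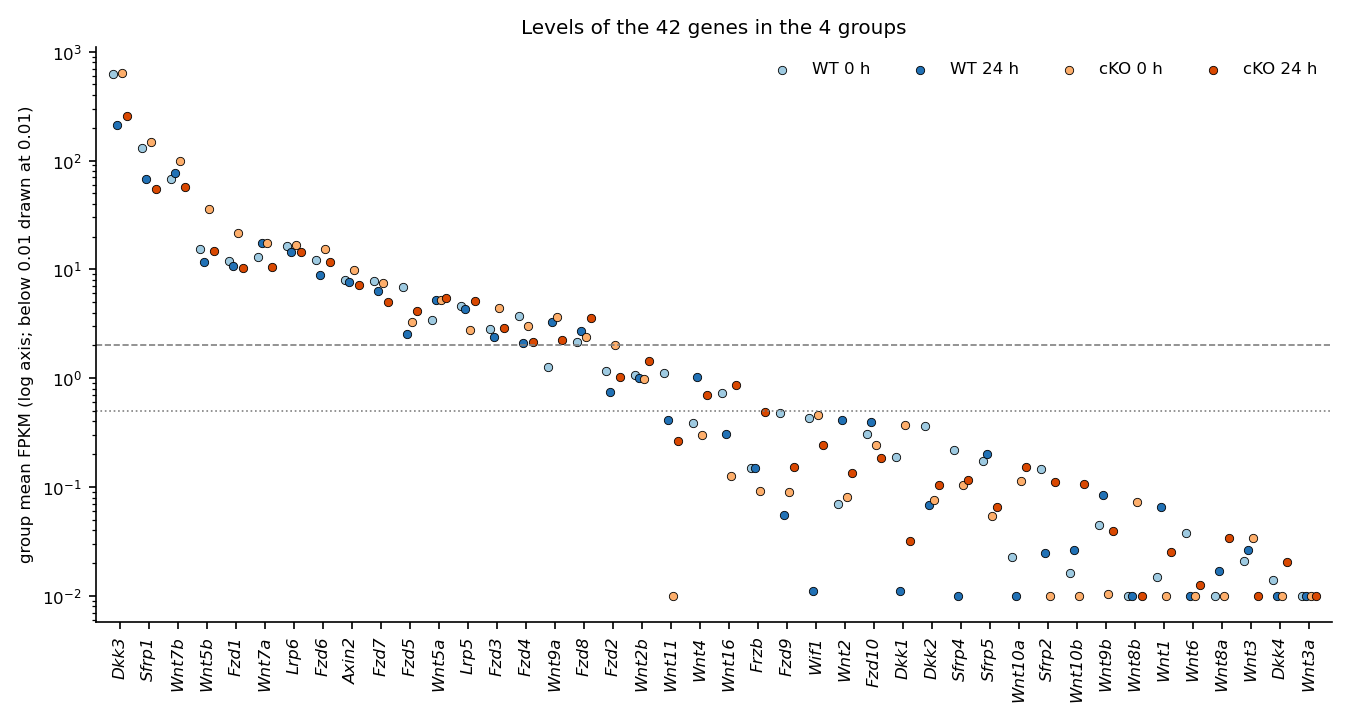
Group mean FPKM (log axis) of the 42 genes in the 4 groups of LCs (means of 3 libraries), ordered by the highest group mean. The dashed line marks 2 FPKM and the dotted line 0.5 FPKM; 18 genes reach the dashed line, led by Dkk3, Sfrp1 and Wnt7b.

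Among the ligands, Wnt7a and Wnt9a rose in WT LCs from 0 h to 24 h PCS and fell in cKO LCs, and Wnt7b and Wnt5b fell in cKO LCs. At 0 h the cKO LCs held more Wnt5b, Wnt7b and Wnt9a than WT LCs. The summed Wnt FPKM was 100.2 to 107.7 in WT 0 h, 111.44 to 128.14 in WT 24 h, 156.09 to 167.68 in cKO 0 h and 91.06 to 98.79 in cKO 24 h, so that none of the 4 groups overlapped. In bulk samples, fewer cells of a type and less RNA per cell cannot be told apart.

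Wnt7b (chr15:85535437-85593708, mm10), the most abundant ligand and one that can act through β-catenin, was at 71.45, 65.78 and 67.16 FPKM in WT 0 h, 80.91, 71.21 and 77.94 FPKM in WT 24 h, 96.02, 98.93 and 99.44 FPKM in cKO 0 h, and 56.71, 60.88 and 53.80 FPKM in cKO 24 h. The 3 cKO 0 h libraries were above all others and the 3 cKO 24 h libraries below all others, while the WT libraries of both times overlapped. The fall in cKO LCs was -0.77 (SE 0.09, adjusted p = 0.000384), and the change in WT LCs was 0.17 (SE 0.13, adjusted p = 0.364). Wnt7b was 1.44 times as high in cKO as in WT at 0 h (log2 change 0.52, SE 0.09, adjusted p = 0.0215). At 24 h the difference was -0.42 (SE 0.13, adjusted p = 0.107). The difference between the genotypes in the change over time (the interaction, from a fit of all 12 libraries) was -0.94 (SE 0.14, adjusted p = 0.00537). The 0 h call was lost without WT 0 h replicate 1 or without any 1 of the cKO 0 h libraries (adjusted p up to 0.11), and the interaction call held without any 1 library.

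Wnt7a (chr6:91363983-91411369), the close paralog of Wnt7b, was at 13.48, 12.56 and 12.78 FPKM in WT 0 h, 18.86, 17.75 and 16.28 FPKM in WT 24 h, 18.05, 18.26 and 15.79 FPKM in cKO 0 h, and 12.26, 10.38 and 9.20 FPKM in cKO 24 h. Groups of the same genotype did not overlap, nor did those of the same time, and the lowest libraries were those of cKO 24 h. Wnt7a rose in WT LCs by 0.42 (SE 0.13, adjusted p = 0.0432) and fell in cKO LCs by 0.67 (SE 0.12, adjusted p = 0.00344), with an interaction of -1.08 (SE 0.17, adjusted p = 0.00573). Its 24 h level in cKO was 0.602 times that in WT (log2 change -0.69, SE 0.14, adjusted p = 0.0318), and at 0 h the difference was 0.40 (SE 0.10, adjusted p = 0.0614). The rise in WT was not called without any 1 of the libraries other than WT 24 h replicate 3 (adjusted p up to 0.131), nor the 24 h difference without any 1 of the libraries other than WT 24 h replicate 3 (up to 0.137).

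Wnt9a (chr11:59306849-59333552) is a ligand of lower abundance. It was at 1.07, 1.36 and 1.35 FPKM in WT 0 h, 2.93, 3.42 and 3.43 FPKM in WT 24 h, 3.91, 3.54 and 3.48 FPKM in cKO 0 h, and 2.47, 2.06 and 2.15 FPKM in cKO 24 h. No group overlapped with any other. Wnt9a rose 2.59-fold in WT LCs (log2 change 0.92, SE 0.16, adjusted p = 0.00509) and fell in cKO LCs by 0.53 (SE 0.11, adjusted p = 0.00711). At 0 h it was 2.89 times as high in cKO as in WT (1.04, SE 0.13, adjusted p = 0.00635), and at 24 h the difference was -0.40 (SE 0.14, adjusted p = 0.155). The interaction was -1.44 (SE 0.17, adjusted p = 0.00188).

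Wnt5b (chr6:119432531-119544824), a ligand mostly known for signaling without β-catenin, was at 14.09, 14.96 and 17.05 FPKM in WT 0 h, 16.05, 10.46 and 8.80 FPKM in WT 24 h, 31.33, 38.90 and 36.36 FPKM in cKO 0 h, and 11.66, 16.12 and 16.12 FPKM in cKO 24 h. Only the cKO 0 h libraries stood apart, above all other 9 libraries. Wnt5b was 2.31 times as high in cKO as in WT at 0 h (1.16, SE 0.12, adjusted p = 0.00332) and fell in cKO LCs by 1.23 (SE 0.15, adjusted p = 0.000438). In WT LCs the change was -0.39 (SE 0.22, adjusted p = 0.201), and the interaction was -0.84 (SE 0.28, adjusted p = 0.0815). Without WT 24 h replicate 3 the interaction had an adjusted p of 0.0297, and without WT 24 h replicate 1 the change in WT had 0.0424. The Wnt5b locus also holds Fbxl14 on the opposite strand, at 4.54 to 6.72 FPKM in all libraries, and whether counting used strand was not given in the sources used here. AU022754, opposite to Wnt7b, lay between 0.27 and 2.05 FPKM.

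Wnt5a (chr14:28505473-28527448), another ligand mostly known for signaling without β-catenin, passed no test. It was at 3.41 ± 0.657 FPKM in WT 0 h, 5.20 ± 0.921 FPKM in WT 24 h, 5.20 ± 1.39 FPKM in cKO 0 h and 5.44 ± 0.796 FPKM in cKO 24 h (SD, n = 3 each). The WT 0 h libraries lay below all others, with a change of 0.49 over time in WT (SE 0.18, adjusted p = 0.0748). Under 2 FPKM, 2 more ligands passed a test. Wnt4 was at 0.30 ± 0.0855 FPKM in cKO 0 h and 0.701 ± 0.11 FPKM in cKO 24 h (0.39, SE 0.14, adjusted p = 0.0483), a call lost in each of the 3 fits without 1 library that kept the gene. Wnt11 was at 1.52, 0.44 and 1.40 FPKM in WT 0 h and listed at 0 in all 3 cKO 0 h libraries (adjusted p = 0.039), a call lost in 3 of 4 such fits.

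**Figure D2:**
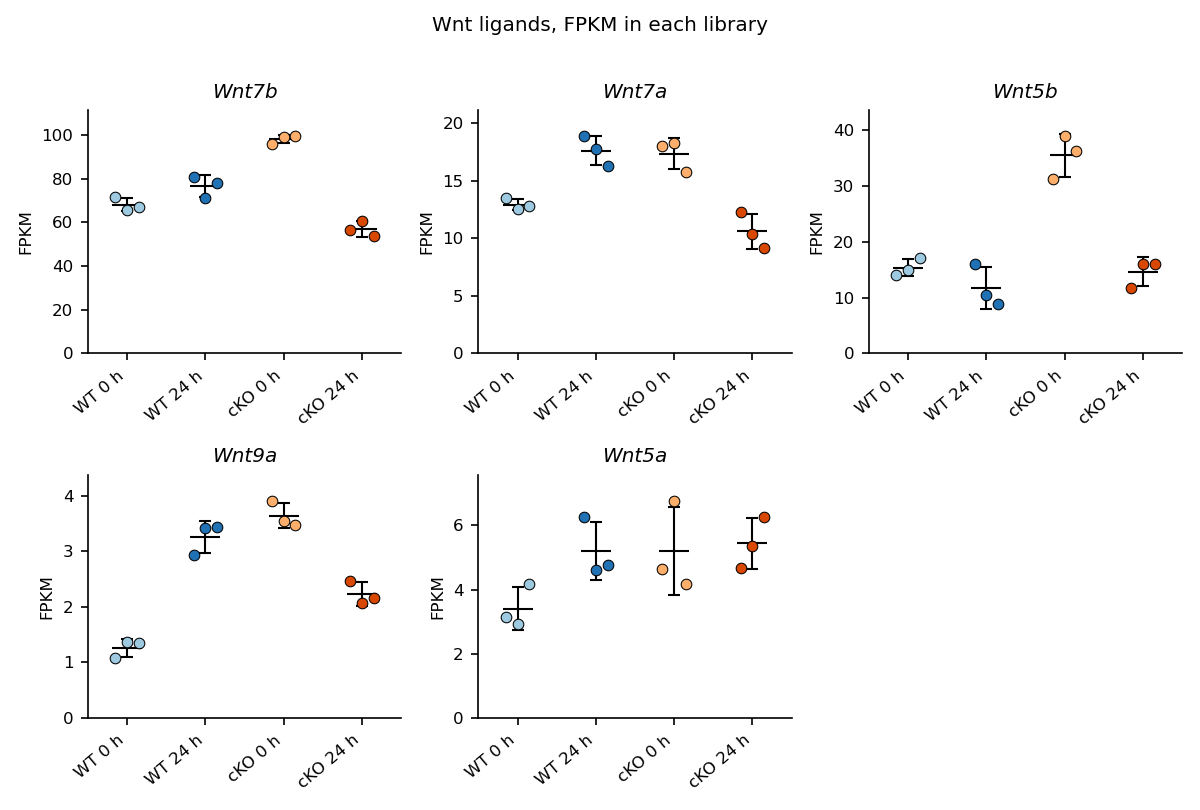
FPKM of Wnt7b, Wnt7a, Wnt5b, Wnt9a and Wnt5a in each library of the 4 groups (points), with mean and SD (black bars, n = 3). Wnt7b, Wnt7a and Wnt9a are lower in cKO 24 h than in cKO 0 h in all libraries, and Wnt5b is highest in cKO 0 h, at 31.33 to 38.90 FPKM.

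Among the Frizzled receptors, only Fzd5 passed the test of the interaction and only Fzd5 passed between the genotypes at 0 h. It fell in WT LCs, was already low in cKO LCs at 0 h, and did not pass the test over time in cKO. Fzd1, Fzd2, Fzd3, Fzd6 and Fzd7 fell in cKO LCs and passed no test in WT. Fzd4 was lower at 24 h without overlap in both genotypes, and passed over time in WT only. Its interaction of 0.26 did not pass (SE 0.24, adjusted p = 0.553). Fzd8 passed no test. The summed Frizzled FPKM was 48.98 to 49.6 in WT 0 h, 32.29 to 39.89 in WT 24 h, 53.57 to 65.43 in cKO 0 h and 35.49 to 52.38 in cKO 24 h.

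Fzd5 (chr1:64730558-64737750), a receptor known from eye development, was at 6.39, 8.11 and 6.16 FPKM in WT 0 h, 2.46, 2.56 and 2.64 FPKM in WT 24 h, 4.08, 2.79 and 3 FPKM in cKO 0 h, and 3.90, 2.85 and 5.72 FPKM in cKO 24 h. The WT 0 h libraries were above all others and the WT 24 h libraries below all others, while the cKO libraries of both times overlapped. In WT LCs the level at 24 h was 0.371 times that at 0 h (-1.14, SE 0.15, adjusted p = 0.0022). In cKO LCs the change was 0.24 (SE 0.22, adjusted p = 0.398), and the interaction was 1.38 (SE 0.27, adjusted p = 0.0118). At 0 h Fzd5 in cKO was 0.478 times that in WT (-0.88, SE 0.16, adjusted p = 0.0227), and this call was lost without WT 0 h replicate 1, cKO 0 h replicate 2 or cKO 0 h replicate 3 (adjusted p up to 0.0969). The WT 0 h libraries enter both of these comparisons.

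Fzd1 (chr5:4753839-4758216), the Frizzled with the highest level in cKO 0 h, was at 10.21, 13.08 and 12.62 FPKM in WT 0 h, 9.85, 8.55 and 13.65 FPKM in WT 24 h, 15.48, 25.99 and 22.92 FPKM in cKO 0 h, and 7.96, 7.74 and 14.95 FPKM in cKO 24 h. The cKO 0 h libraries were above all others, though cKO 24 h replicate 3 came close to the lowest of them. Fzd1 fell in cKO LCs by 1.03 (SE 0.27, adjusted p = 0.0158), which was lost without cKO 0 h replicate 2 or 3 or cKO 24 h replicate 1 or 2 (up to 0.0557). Its difference at 0 h was 0.77 (SE 0.19, adjusted p = 0.0536).

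Fzd6 (chr15:39003757-39066778), a receptor known for planar cell polarity, was at 13.63, 10.65 and 11.98 FPKM in WT 0 h, 10.25, 7.67 and 8.78 FPKM in WT 24 h, 14.50, 16.98 and 14.89 FPKM in cKO 0 h, and 10.19, 11.89 and 13.20 FPKM in cKO 24 h. Groups did not overlap over time in either genotype, with a fall of 0.37 in cKO (SE 0.12, adjusted p = 0.0355) and a change of -0.41 in WT (SE 0.16, adjusted p = 0.0927). The interaction of 0.03 (SE 0.20, 95% interval -0.39 to 0.46) did not pass.

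Fzd3 (chr14:65192441-65262463), another polarity receptor, was at 2.96, 3.09 and 2.38 FPKM in WT 0 h, 2.79, 2.16 and 2.25 FPKM in WT 24 h, 3.97, 4.86 and 4.52 FPKM in cKO 0 h, and 2.53, 2.52 and 3.71 FPKM in cKO 24 h. Fzd2 (chr11:102604431-102608058) was at 1.27, 1.19 and 1.01 FPKM in WT 0 h, 0.65, 1.08 and 0.51 FPKM in WT 24 h, 2.28, 1.84 and 1.97 FPKM in cKO 0 h, and 1.02, 0.64 and 1.41 FPKM in cKO 24 h. In both genes, as in Fzd1 and Fzd6, the cKO 0 h libraries were above all 9 others. Over time in cKO, Fzd3 fell by 0.49 (SE 0.15, adjusted p = 0.0302) and Fzd2 by 0.60 (SE 0.17, adjusted p = 0.0206). At 0 h their differences of 0.52 and 0.49 did not pass (adjusted p = 0.0609 and 0.076). The falls of Fzd2, Fzd3 and Fzd6 in cKO were each lost in 3 or 4 of the 6 fits that left out 1 library (adjusted p up to 0.108).

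Fzd7 (chr1:59482147-59486955), a receptor that can act through β-catenin, was at 7.57, 6.88 and 8.81 FPKM in WT 0 h, 6.78, 5.14 and 7.13 FPKM in WT 24 h, 6.96, 7.71 and 7.86 FPKM in cKO 0 h, and 4.87, 5.03 and 5.20 FPKM in cKO 24 h. The cKO 24 h libraries were close together and below all cKO 0 h libraries, and the fall of 0.50 (SE 0.10, adjusted p = 0.0048) held without any 1 library. Fzd4 (chr7:89404366-89410110), the receptor for norrin as well as for Wnts, was at 3.98, 3 and 4.26 FPKM in WT 0 h, 2.70, 1.96 and 1.66 FPKM in WT 24 h, 3.61, 2.55 and 2.94 FPKM in cKO 0 h, and 1.78, 2.16 and 2.5 FPKM in cKO 24 h. It was lower at 24 h without overlap in both genotypes. The fall passed in WT (by 0.62, SE 0.19, adjusted p = 0.0459, lost in 4 of 6 fits without 1 library) and had an adjusted p of 0.0834 in cKO. Fzd8 was at 2.17 ± 0.638, 2.70 ± 0.0512, 2.40 ± 0.162 and 3.59 ± 1.64 FPKM in WT 0 h, WT 24 h, cKO 0 h and cKO 24 h (SD, n = 3 each).

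Lrp6 (chr6:134446476-134567018), the more abundant co-receptor, was at 16.4 ± 0.7, 14.3 ± 0.808, 16.9 ± 2.41 and 14.3 ± 1.31 FPKM in WT 0 h, WT 24 h, cKO 0 h and cKO 24 h (SD, n = 3 each) and passed no test. Lrp5 (chr19:3584825-3708226) was at 3.34, 5.77 and 4.77 FPKM in WT 0 h, 3.37, 4.8 and 4.78 FPKM in WT 24 h, 3.08, 2.59 and 2.60 FPKM in cKO 0 h, and 4.21, 3.79 and 7.48 FPKM in cKO 24 h. The cKO 0 h libraries were the lowest of all. The rise in cKO was 0.67 (SE 0.21, adjusted p = 0.0352), and the call was lost without any 1 of the cKO 0 h libraries (up to 0.0938).

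**Figure D3:**
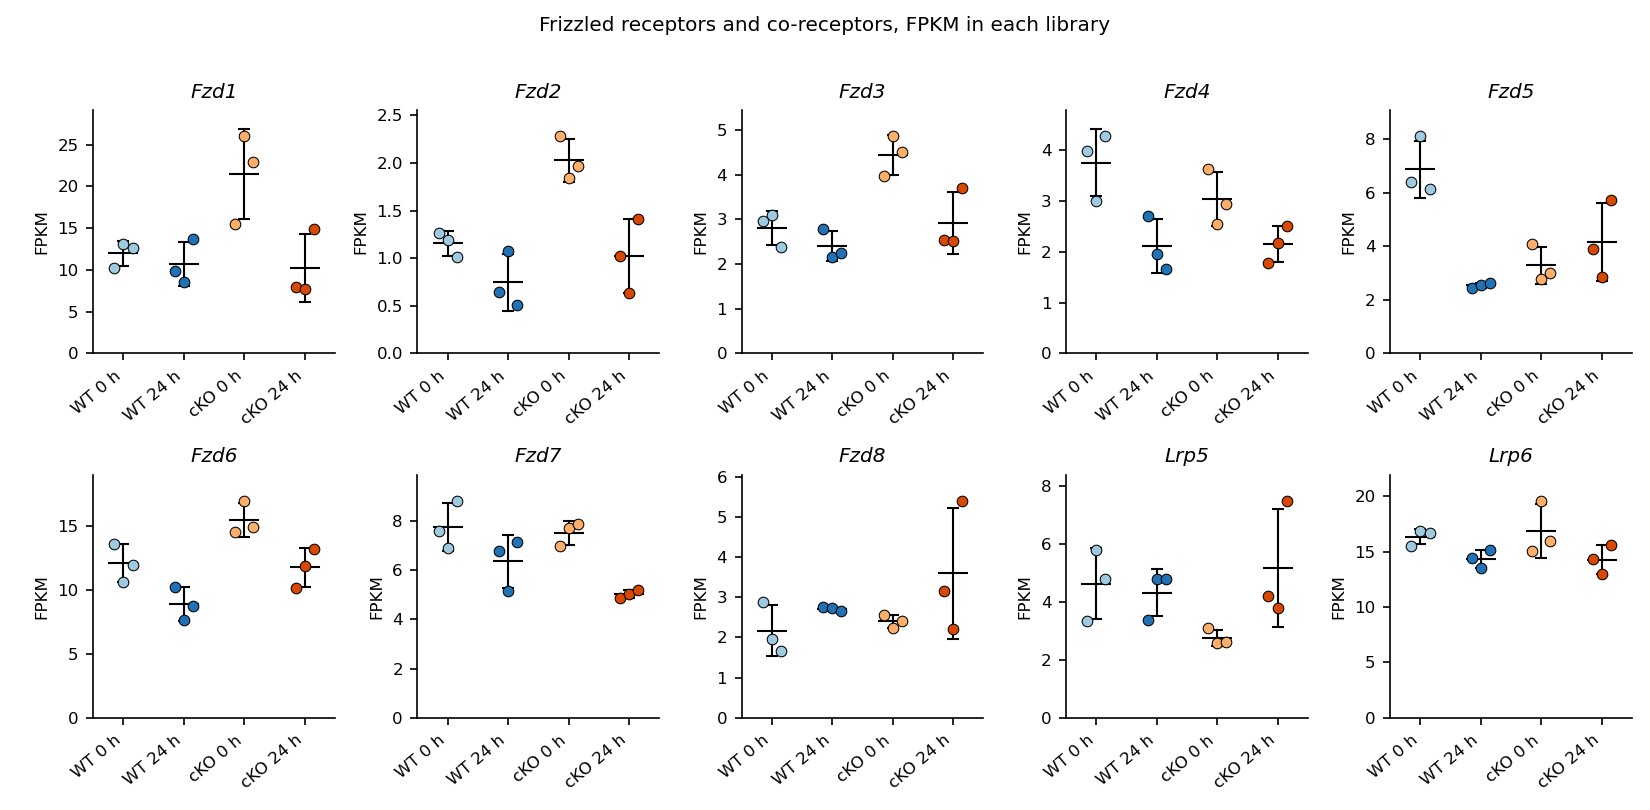
FPKM of 8 Frizzled receptors and the co-receptors Lrp5 and Lrp6 in each library (points), with mean and SD (black bars, n = 3). Fzd5 is highest in WT 0 h (6.16 to 8.11 FPKM), whereas Fzd1, Fzd2, Fzd3 and Fzd6 are highest in cKO 0 h.

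Of the 42 genes, 28 had a promoter in the RefSeq table used here (GRCm38.p6). Below are those of Wnt7a, Wnt9a and Fzd5, the genes with such an entry among the 4 whose change over time differed between the genotypes. Each is the part of the 250 bases before the start site that lies outside the gene's locus in the files, on the gene's strand. Capitals mark matches to GGGCGG on either strand, the core of the GC box bound by Sp1 family factors, and matches can adjoin.
Wnt7a: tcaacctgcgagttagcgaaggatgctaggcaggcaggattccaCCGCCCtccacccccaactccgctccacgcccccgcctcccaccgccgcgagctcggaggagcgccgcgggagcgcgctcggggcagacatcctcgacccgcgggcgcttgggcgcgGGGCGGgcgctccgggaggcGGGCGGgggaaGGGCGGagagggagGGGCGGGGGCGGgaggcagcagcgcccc
Wnt9a: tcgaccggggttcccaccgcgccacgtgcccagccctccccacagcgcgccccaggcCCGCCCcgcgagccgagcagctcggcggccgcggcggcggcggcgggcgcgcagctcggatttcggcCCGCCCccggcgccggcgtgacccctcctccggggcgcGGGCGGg
Fzd5: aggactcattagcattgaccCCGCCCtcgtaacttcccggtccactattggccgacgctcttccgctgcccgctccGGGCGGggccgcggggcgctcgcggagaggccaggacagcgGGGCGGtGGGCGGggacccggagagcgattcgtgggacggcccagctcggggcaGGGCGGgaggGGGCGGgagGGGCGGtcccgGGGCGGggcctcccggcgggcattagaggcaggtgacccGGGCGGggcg
The Wnt7a stretch (chr6:91411370-91411603, minus strand, 234 bases) was 77.4% G and C, against a median of 52.1% over the same window of 32851 promoters, and had 6 matches. The Wnt9a stretch (chr11:59306680-59306848, plus strand, 169 bases) was 84.6% G and C with 3 matches. The Fzd5 stretch (chr1:64737751-64738000, minus strand, 250 bases) was 76.4% G and C with 9 matches. Over all promoters in those windows, GGGCGG occurred at least once in 30.4%, 19.3% and 32.7%. CTTTGA and CTTTGT, the core letters of TCF/LEF binding, were in none of the 3 stretches on either strand, and in 13.2% and 15.6% of all promoters for the window of Wnt7a, 10.3% and 11.5% for that of Wnt9a and 13.8% and 16.5% for that of Fzd5. That says only that those letters are not in these windows.

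The abundant genes of the antagonist group, Dkk3 and Sfrp1, fell after surgery in both genotypes. Dkk3 (chr7:112116019-112159121), a divergent member of the Dickkopf family, was at 576.64, 699.49 and 585.21 FPKM in WT 0 h, 234.88, 149.07 and 248.23 FPKM in WT 24 h, 608.89, 643.65 and 652.27 FPKM in cKO 0 h, and 246.18, 204.52 and 327.23 FPKM in cKO 24 h. Sfrp1 (chr8:23411382-23449632), which binds Wnts and keeps them from Frizzleds, was at 131.23, 125.67 and 129.03 FPKM in WT 0 h, 83.26, 53.01 and 66.60 FPKM in WT 24 h, 123.18, 162.13 and 155.04 FPKM in cKO 0 h, and 51.17, 51.85 and 61.91 FPKM in cKO 24 h. For both genes all 0 h libraries were above all 24 h libraries of either genotype.

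Dkk3 at 24 h was 0.34 times its 0 h level in WT (-1.58, SE 0.24, adjusted p = 0.00308) and 0.408 times in cKO (-1.32, SE 0.18, adjusted p = 0.000759). Sfrp1 was 0.526 times its 0 h level in WT (-0.94, SE 0.18, adjusted p = 0.00837) and 0.375 times in cKO (-1.40, SE 0.14, adjusted p = 0.000172). The interactions did not pass, at 0.27 for Dkk3 (95% interval -0.39 to 0.93, adjusted p = 0.636) and -0.45 for Sfrp1 (-0.96 to 0.05, adjusted p = 0.258). Neither gene differed between the genotypes past the test at 0 h or at 24 h.

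Axin2 (chr11:108917828-108950783) was at 6.97, 7.58 and 9.21 FPKM in WT 0 h, 6.97, 8.03 and 7.89 FPKM in WT 24 h, 9.78, 8.75 and 10.91 FPKM in cKO 0 h, and 8.28, 6.56 and 6.61 FPKM in cKO 24 h. The WT libraries of both times overlapped, and those of cKO did not. The change was -0.04 in WT (SE 0.15, 95% interval -0.39 to 0.31) and a fall of 0.41 in cKO (SE 0.13, adjusted p = 0.0308), lost in 4 of 6 fits without 1 library. The interaction of -0.37 did not pass (SE 0.19, adjusted p = 0.265).

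Wnts are made and released with the help of Porcn and Wls. Porcn, the enzyme that attaches the lipid to Wnts, was at 3.43, 4.99 and 2.84 FPKM in WT 0 h, 11.20, 7.60 and 10.25 FPKM in WT 24 h, 18.17, 11.83 and 12.90 FPKM in cKO 0 h, and 9.27, 9.43 and 10.42 FPKM in cKO 24 h. It rose in WT by 1.18 (SE 0.22, adjusted p = 0.00669), was higher in cKO at 0 h by 1.69 (SE 0.21, adjusted p = 0.00635), fell in cKO by 0.49 (adjusted p = 0.0334) and had an interaction of -1.67 (SE 0.28, adjusted p = 0.00737). The fall in cKO was lost in 4 of 6 fits without 1 library. Wls, which carries Wnts to the cell surface, was at 56.87, 52.54 and 55.07 FPKM in WT 0 h, 51.50, 43.30 and 52.44 FPKM in WT 24 h, 65.25, 76.50 and 69.49 FPKM in cKO 0 h, and 34.95, 39.99 and 41.20 FPKM in cKO 24 h. Like Wnt7b it was highest in cKO 0 h and lowest in cKO 24 h, with a fall of 0.85 in cKO (SE 0.11, adjusted p = 0.00055) and an interaction of -0.69 (SE 0.16, adjusted p = 0.0231, lost in 4 of 12 fits without 1 library). The counts of the other genes of the pathway over time are set beside the same background, the share of all genes tested, of 20.9% higher and 8.81% lower in WT and 35.4% higher and 10.7% lower in cKO, and nothing is read from a count near it. Of the 7 genes of Wnt release and surface binding, 3 rose and 2 fell in WT over time, and 2 rose and 3 fell in cKO. In WT, Notum, the enzyme that removes the lipid from Wnts, rose by 1.38 (adjusted p = 0.00658), Tpbg by 1.15 (0.0049), and the glypican Gpc3 fell by 1.05 (0.0449, lost in 5 of 6 fits without 1 library). The glypican Gpc4 fell in both genotypes, by 1.01 in WT (0.0102) and 1.23 in cKO (0.00217), and Tpbg rose in cKO as well, by 1.19 (0.00333).

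R-spondins keep Frizzleds on the surface by way of Lgr receptors, against the ligases Znrf3 and Rnf43. Rspo1 was at 53.31, 49.30 and 51.42 FPKM in WT 0 h, 11.69, 9.87 and 15.09 FPKM in WT 24 h, 66.16, 56.60 and 59.67 FPKM in cKO 0 h, and 6.77, 7.78 and 6.29 FPKM in cKO 24 h. All 24 h libraries were below all 0 h libraries, and those of cKO 24 h were the lowest. The fall was 2.00 in WT (SE 0.17, adjusted p = 0.000361) and 2.96 in cKO (SE 0.11, adjusted p = 3.04e-06), with an interaction of -0.96 (SE 0.20, adjusted p = 0.0141). Among the 9 genes of that group, 5 were tested in WT, where 1 rose and 3 fell, and 6 in cKO, where 2 rose and 4 fell. Lgr4, the abundant R-spondin receptor here, fell by 0.69 in WT (adjusted p = 0.00922) and by 0.87 in cKO (0.0106). Znrf3 fell by 0.59 in WT (0.016, lost in 3 of 6 fits without 1 library) and by 0.55 in cKO (0.00411), and Rnf43 by 0.69 in cKO (0.0165, lost in 2 of 6). Lgr6 was at most 0.13 FPKM at 0 h and at 0.49 to 3.10 FPKM at 24 h, a rise of 1.10 in WT (0.034, lost in 4 of 5 fits without 1 library) and of 1.71 in cKO (0.000159).

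**Figure D4:**
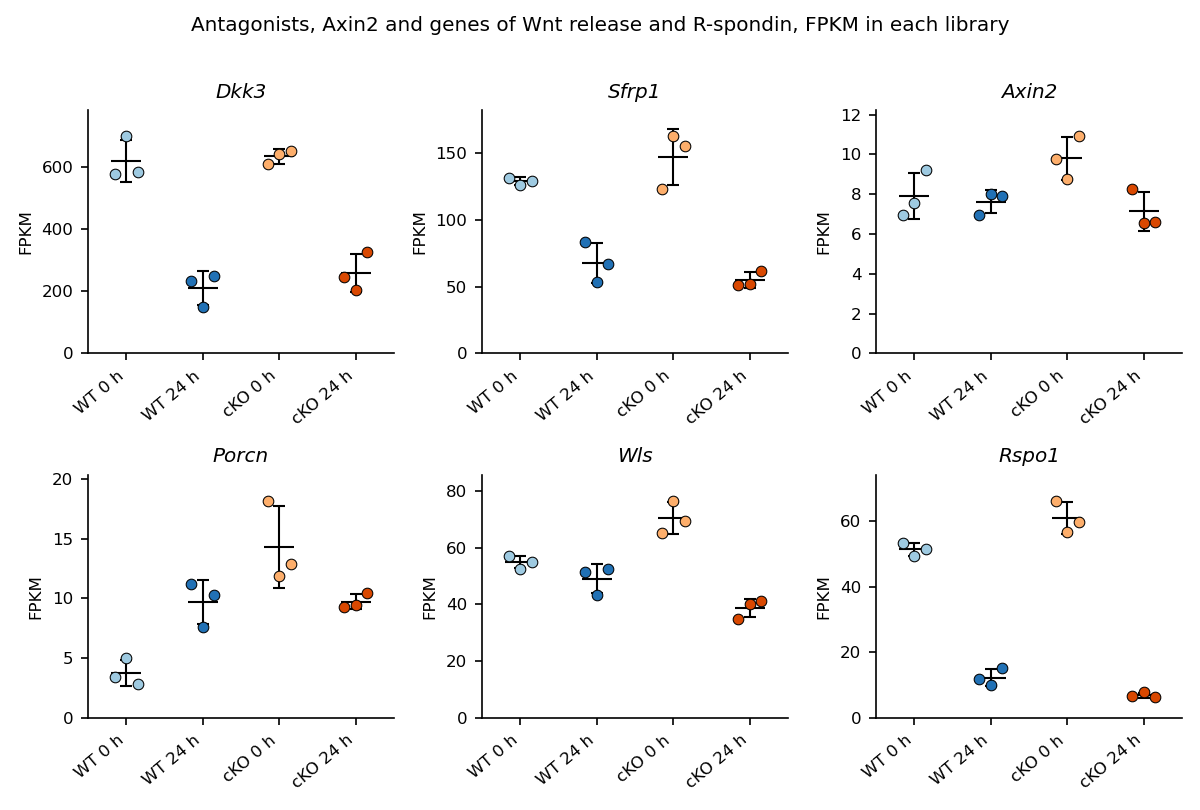
FPKM of Dkk3, Sfrp1, Axin2, Porcn, Wls and Rspo1 in each library (points), with mean and SD (black bars, n = 3). Dkk3, Sfrp1 and Rspo1 are lower at 24 h than at 0 h in both genotypes, and Porcn is lowest in WT 0 h at 2.84 to 4.99 FPKM.

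Further along the pathway, of 16 core genes of β-catenin control, 3 rose and 2 fell in WT over time and 3 rose in cKO. Of 13 TCF/LEF factors and their partners, 3 rose and 1 fell in WT, and 5 rose and 1 fell in cKO. Tcf7 rose by 1.16 in WT (adjusted p = 0.00551) and by 1.38 in cKO (0.000163). The corepressor Tle2 fell by 0.76 in WT (0.0187, lost in 2 of 6 fits without 1 library) and rose by 0.86 in cKO (0.00608), with an interaction of 1.62 (SE 0.25, adjusted p = 0.00616). Of 14 genes of polarity and β-catenin-independent signaling, 3 rose and 4 fell in WT and 4 rose and 4 fell in cKO. The polarity cadherin Celsr2 fell by 1.05 in WT (0.00753) and 1.11 in cKO (0.00124), and Celsr3 rose by 1.44 in cKO (0.000107), with an interaction of 1.64 (SE 0.31, adjusted p = 0.0105). Photoreceptor genes also rose over time in cKO, in 17 of 18, and inner retina genes in 10 of 11 tested. The part of such RNA in the values of this paragraph, those of Tle2, Celsr3, Nkd2 and Apcdd1 among them, was not tested. Of 9 other inhibitors, 5 were tested in WT, where 1 rose and 1 fell, and 6 in cKO, where 4 rose and 1 fell. Kremen1, a Dickkopf receptor, rose by 0.77 in WT (0.00879) and 0.72 in cKO (0.000699), and the intracellular inhibitor Nkd2 rose by 1.29 in cKO (0.00312). Apcdd1 rose by 1.40 in cKO (0.0124). Sostdc1 fell by 1.11 in WT (0.00286), and Draxin, with a mean of 1.26 FPKM in cKO 0 h, fell by 0.99 in cKO (0.00931). Neither fall was lost in the fits without 1 library that kept the gene.

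Of 19 listed target genes, 5 rose and 2 fell of 16 tested in WT, and 9 rose and 3 fell of 17 tested in cKO, with Axin2 among the falls (background, in the same order, 20.9%, 8.81%, 35.4% and 10.7%). Among those that passed, the largest changes were those of Wisp2 (2.24, adjusted p = 0.0062), Notum and Cd44 (1.31, 0.00117) in WT, where Myc missed the threshold at 1.48 (0.0504), and of Myc (2.83, 3.06e-05), Cd44 (1.61, 0.000139) and Apcdd1 (1.40, 0.0124) in cKO. These genes answer to other pathways as well. The target list shares Notum, Lgr5, Znrf3, Rnf43, Apcdd1, Nkd1, Nkd2, Tcf7 and Lef1 with the lists above, and Axin2 with the members. Those genes are therefore counted more than once. Myc was at 11.65, 5.83 and 3.03 FPKM in WT 0 h and at 1.21, 0.60 and 1.09 FPKM in cKO 0 h, a difference of -1.85 (SE 0.37, adjusted p = 0.0293) that was lost in 5 of 6 fits without 1 library. At 0 h, 2 of 15 tested were lower in cKO (background 2.75%), Myc and Cd44, and the difference of Cd44 (-0.75, adjusted p = 0.0294) was lost in 4 of 6 fits without 1 library.

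In WT, 6 of 22 tested genes passed from 0 h to 24 h (27.3%, against 29.7% of all 15146 genes tested), with 2 higher and 4 lower (background 20.9% and 8.81%). In cKO, 14 of 20 passed (70.0%, against 46.1% of 15237), with 2 higher and 12 lower, whereas 35.4% of all genes were higher and 10.7% lower. That count rested on single libraries: it was 8 of 21 without cKO 0 h replicate 3 (38.1%, against 36.7% of all genes in that fit) and 8 of 19 without cKO 24 h replicate 2 (42.1%, against 37.6%), in both with 1 higher and 7 lower. The median change of the tested members was -0.17 in WT and -0.45 in cKO, and that of all genes 0.16 and 0.23. The study's criteria ask for a fold over 2, a difference over 2 FPKM and a group mean of at least 2 FPKM. They also ask for an adjusted p of at most 0.05, taken here from limma. Together, 3 members met all in WT (background 14.3%) and 4 in cKO (background 15.1%). The 0 h and 24 h groups did not overlap in 9 tested members in WT (background 46.9%) and in 15 in cKO (background 56.9%). With each library rescaled to the same median, 1 member was higher and 6 were lower in WT and 0 higher and 14 lower in cKO, while all genes went from 3165 higher and 1335 lower to 2227 and 2418 in WT, and from 5394 and 1636 to 3203 and 3034 in cKO. On that scale the rise of Wnt7a in WT was 0.17 (limma adjusted p = 0.303) and the rise of Lrp5 in cKO 0.43 (0.113). Lrp6 fell by 0.42 in WT (0.0474) and by 0.51 in cKO (0.0167). Fzd6 also passed in WT, with a fall of 0.64 (0.0305), and Fzd4 in cKO, with a fall of 0.57 (0.0103).

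Between the genotypes, 5 of 20 tested members passed at 0 h (25.0%, against 6.94% of 14708 genes), with 3 higher in cKO (Wnt5b, Wnt7b and Wnt9a; background 4.18%) and 2 lower (Fzd5 and Wnt11; background 2.75%), and 3 met all criteria (background 2.52%). The count was 2 of 20, both higher, without WT 0 h replicate 1, cKO 0 h replicate 2 or cKO 0 h replicate 3 (against 1.84%, 1.83% and 0.922% of all genes in those fits). The groups did not overlap in 12 of the 20 (background 30.8%). At 24 h only Wnt7a passed, 1 of 21 (4.76%, against 6.29% of 15366 genes), with 0 members higher and 1 lower (background 5.64% and 0.644%), and 0 met all criteria (background 3.66%). The groups did not overlap in 5 of the 21 (background 26.5%). For the interaction, 4 of 21 passed (19.0%, against 9.39% of 15262 genes), with Wnt7a, Wnt7b and Wnt9a lower (background 2.56%) and Fzd5 higher (background 6.83%), and all 4 held in every alternative fit tried. The comparisons share libraries: those of 0 h and those over time use the same 0 h groups.

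**Figure D5:**
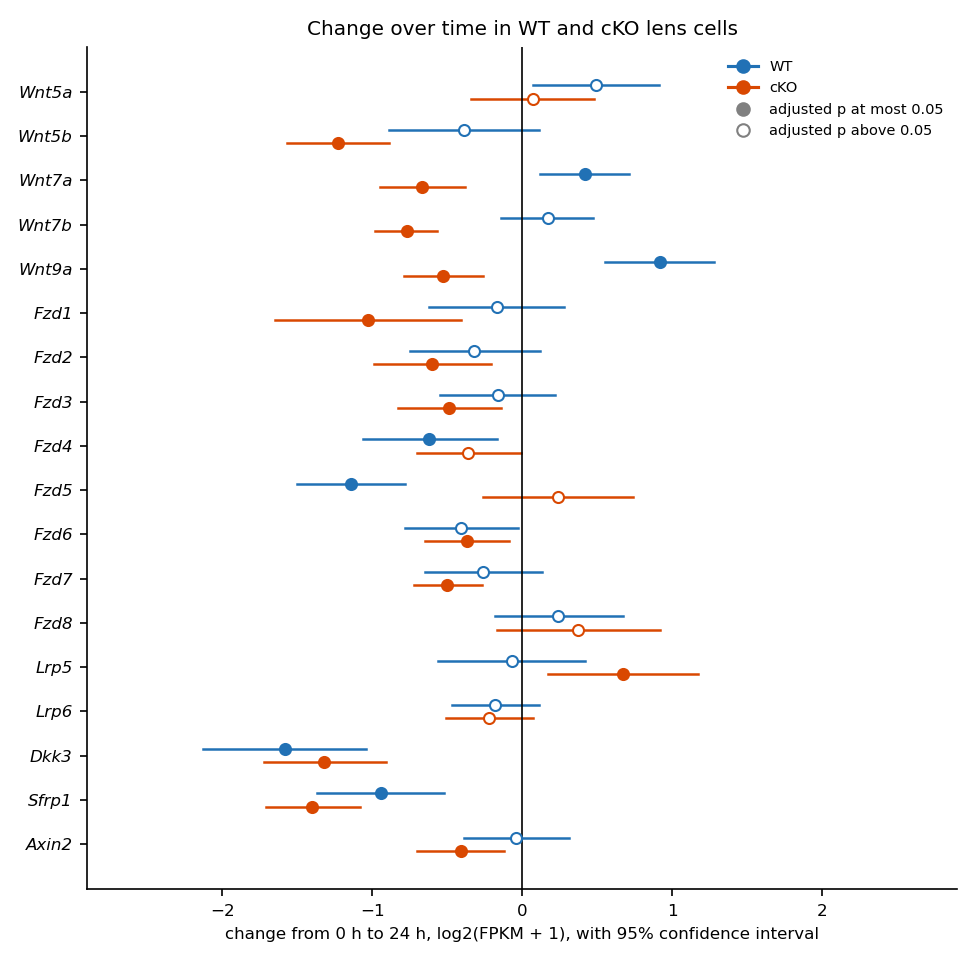
Change from 0 h to 24 h PCS on the log2(FPKM + 1) scale in WT (blue) and cKO (orange) for the 18 genes with a group mean of at least 2 FPKM, with 95% confidence intervals from limma. Filled points have an adjusted p of at most 0.05; Wnt7a and Wnt9a lie right of 0 in WT and left of 0 in cKO, and Dkk3 and Sfrp1 lie left of 0 in both.

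Markers of other cells moved with some of these groups, and their part in the results was not tested. Of 18 photoreceptor genes, 17 were higher in cKO than in WT at 24 h. Of 11 tested inner retina genes, 4 were higher and 0 lower in cKO at 24 h, and 6 higher and 0 lower for the interaction. Without WT 0 h replicate 2, the other library with a high photoreceptor sum, the interactions were -1.06 for Wnt7a, -0.91 for Wnt7b, -1.47 for Wnt9a and 1.27 for Fzd5 (adjusted p = 0.00891, 0.00746, 0.00265 and 0.0258). All cKO 24 h libraries, with sums of 1056.12 to 1246.72, stayed in that fit, so it cannot separate photoreceptor RNA from the interaction. The summed FPKM of 6 corneal epithelium genes was 526.46 to 639.84 in WT 0 h, 318.09 to 635.95 in WT 24 h, 1018.98 to 1463.21 in cKO 0 h and 271.71 to 355.46 in cKO 24 h, a pattern carried by Aldh3a1 and Tkt, while Krt12, the defining corneal keratin, was at most 1.27 FPKM in WT 0 h, 4.62 in WT 24 h, 0.19 in cKO 0 h and 0.5 in cKO 24 h. Another listed keratin, Krt15, had group means of 3.72, 17.74, 5.85 and 2.37 FPKM in the same order. Of 10 lens epithelium genes, 4 were higher in cKO at 0 h and 0 lower, 2 rose and 4 fell over time in WT, and 8 fell and 0 rose over time in cKO (median -1.20), with 3 lower and 0 higher for the interaction. Among them Cdh1 was at 55.62 to 63.05 FPKM in WT 0 h, 75.2 to 89.98 FPKM in WT 24 h, 93.21 to 98.31 FPKM in cKO 0 h and 37.66 to 46.49 FPKM in cKO 24 h, the same order of group means as for Wnt7b. Pax6 did not pass at 0 h (-0.03, adjusted p = 0.856). Red blood cell genes were lower in cKO at 0 h in 5 of 5, and 5 of 5 rose over time in cKO. The fiber cell list fell over time in both genotypes, in 10 of 11 tested genes in WT and 11 of 11 in cKO, alongside Dkk3 and Sfrp1. Neutrophil genes rose over time in 5 of 5 tested in WT and 4 of 4 in cKO, and the summed FPKM of the 8 listed went from 0.51 to 0.71 in WT 0 h to 45.47 to 64.39 in WT 24 h, and from 0.46 to 1.41 in cKO 0 h to 11.99 to 34.72 in cKO 24 h. In each 24 h group, 3 of the 8 were at 0 in all libraries, among them Mpo, which was at 0 in all 12 libraries. Macrophage genes rose in 3 of 8 tested in WT and 5 of 9 in cKO, with sums of 10.17 to 19.04 FPKM in WT 0 h, 41.98 to 61.19 in WT 24 h, 9.86 to 17.06 in cKO 0 h and 40.3 to 61.69 in cKO 24 h. Of 7 corneal stroma genes, Kera was at most 0.13 FPKM, while others were high. Their summed FPKM was 746.77 to 1008.25 in WT 0 h and 613.32 to 834.39 in WT 24 h. In cKO it was 983.17 to 1148.41 at 0 h and 550.63 to 1153.87 at 24 h. The highest were Ptgds, with group means of 567.73, 558.63, 576.98 and 633.55 FPKM, and Aldh1a1, with 328.56, 122.69, 488.98 and 113.93 FPKM, in the same order.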

How the data were processed

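The authors made strand-keeping total RNA libraries with a kit for very small inputs and had Cuffdiff 2.2.1 compute FPKM for each gene in each library; the submitters' processing notes also name FastQC, cutadapt 1.12, TopHat2 2.1.0 and the builds mm10 and GRCm38.p5. The authors deposited 4 tables of 45859 genes, 1 per pair of groups, with the FPKM of each library. A total of 12 library columns occur in more than 1 table, with 0 values differing between them. The tables also hold 16 columns of group values, and the authors' own fold changes, p-values and q-values, none of which were used. No read counts entered the work, which leaves the counting error unknown; relative depths, from 0.87 to 1.09, came from steps between low FPKM values. Genes listed at 0 were kept as 0.

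For each pair of groups, limma 3.58.1 (R 4.3.3; limma-trend with eBayes, two-sided) was run on log2(FPKM + 1) of genes averaging 0.5 FPKM or more in the fitted libraries, with Benjamini-Hochberg adjustment over all genes tested. The interaction of genotype and time was fitted over 12 libraries. An exact permutation test of 3 against 3 libraries cannot go below 0.1 and was not used. The fits were tested on simulated data. Replicates are labelled as separate samples, each a pool of 5 capsules. Same-numbered libraries did not deviate together (18 pairs, r from -0.249 to 0.096), so the numbers were not taken as pairs.

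The 42 genes, the pathway lists and the marker lists were chosen with earlier results of these data known. Values per library are given for genes that passed a test and had a group mean of at least 2 FPKM, group means for the others at that level, and up to 4 genes of a pathway list with the largest changes among those that passed. Porcn, Wls, Rspo1, Myc, Znrf3, Rnf43 and Lgr6, where outside that count, and the Fbxl14, AU022754 and Cryaa values were added after their values were seen. Loci are those of the files, with starts counted from 1; all 42 overlap the GRCm38 gene of the same symbol. Tables and figures used Python 3.11.15, pandas 2.3.3, numpy 2.4.6 and matplotlib 3.10.9.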

Additional observations from a re-analysis of the deposited data

Results flagged for a closer look

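The change from 0 h to 24 h PCS differed between WT and cKO LCs, by the test of the interaction in limma (cKO change minus WT change, log2 scale), for 4 of the genes described: Wnt7a (-1.08, adjusted p = 0.00573), Wnt7b (-0.94, adjusted p = 0.00537), Wnt9a (-1.44, adjusted p = 0.00188) and Fzd5 (1.38, adjusted p = 0.0118). Over leaving out each library in turn, their highest adjusted p was 0.0195 for Wnt7a, 0.0187 for Wnt7b, 0.00984 for Wnt9a and 0.0369 for Fzd5. Of the 21 members tested 19.0% passed, against 9.39% of 15262 genes.

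The same test passed for 8 other genes of the pathway lists: Porcn (-1.67, adjusted p = 0.00737), Rspo1 (-0.96, adjusted p = 0.0141), Wls (-0.69, adjusted p = 0.0231), Dvl2 (-0.54, adjusted p = 0.0452), Ryk (-0.61, adjusted p = 0.0414), Tle2 (1.62, adjusted p = 0.00616), Celsr3 (1.64, adjusted p = 0.0105) and Nkd2 (1.61, adjusted p = 0.038). Over leaving out each library in turn, Porcn, Rspo1, Tle2 and Celsr3 passed each time, Wls was lost in 4, Nkd2 in 8, Ryk in 9 and Dvl2 in 11 of 12 fits. By list, the passes in the full fit were 2 of 7 tested for Wnt release, 1 of 5 for R-spondins and 1 of 6 for other inhibitors. They were 1 of 16 for β-catenin control, 1 of 13 for TCF/LEF factors, 2 of 14 for polarity and 1 of 16 for targets, where Nkd2 counts again. Of all 15262 genes tested, 9.39% passed, and nothing is read from a count near that share.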

How the results depend on the processing

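Of 30 member results that passed, none changed direction in 401 values under the alternatives (another pseudocount, filter or scaling, the replicate block, 1 library left out, 1 fit over 12 libraries), and 70 of those values no longer passed. Of 1106 values for 84 pathway gene results that passed, 229 no longer did. At 0 h, with no filter on low values, 254 genes, 3 members and 130 genes on all criteria were called, against 1020, 5 and 371. With a filter at 2 FPKM, 574 genes were called at 24 h (966 in the report's fit) and 930 for the interaction (1433). In 1 fit over all 12 libraries, 1642 genes and 2 members were called at 24 h, the second being Wnt7b. The cause was not tested.

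With the replicate number as a replicate block, 269 genes, 2 members and 224 genes on all criteria were called at 0 h, and 0 members at 24 h, where Wnt7a had an adjusted p of 0.0686 in limma, and 4 of the 21 tested members had an unadjusted p under 0.05. Other block counts were 5, 13 and 4 members in WT over time, in cKO over time and for the interaction.

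Without 1 library, counts of genes ran from 2512 to 5087 in WT over time (lowest without WT 0 h replicate 1), 136 to 756 at 0 h (lowest without cKO 0 h replicate 3), 439 to 1108 at 24 h (lowest without cKO 24 h replicate 2) and 688 to 1921 for the interaction (lowest without cKO 0 h replicate 2). Counts of members ran from 4 to 7 in WT, 8 to 12 in cKO (lowest without cKO 0 h replicate 3 or cKO 24 h replicate 2), 2 to 5 at 0 h and 0 to 1 at 24 h, and genes on all criteria from 125 to 378 at 0 h and 371 to 638 at 24 h.

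Changes that passed no test turned direction as follows. Rescaled to the same median, Wnt7b in WT was -0.09, Wnt5a in cKO -0.19, Fzd4 and Wnt5a at 24 h -0.02 and -0.01, and the interaction of Fzd6 0. Without 1 library, ranges crossed 0 for Axin2 (-0.12 to 0.06) and Lrp5 (-0.25 to 0.08) in WT, Wnt5a in cKO (-0.05 to 0.25), Lrp6 (-0.07 to 0.11), Dkk3 (-0.01 to 0.13) and Fzd7 (-0.11 to 0.05) at 0 h, Fzd1 (-0.38 to 0.08), Lrp6 (-0.07 to 0.06), Fzd4 (-0.08 to 0.16), Wnt5a (-0.03 to 0.18), Fzd8 (-0.02 to 0.48) and Lrp5 (-0.08 to 0.33) at 24 h, and the interactions of Lrp6 (-0.12 to 0.06), Fzd6 (-0.06 to 0.13) and Fzd8 (-0.14 to 0.36). FPKM with no read counts limit what can be said of genes near 0.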
